A study of Mus musculus with 8 samples.

Results

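The FoxO genes Foxo1, Foxo3, Foxo4 and Foxo6 were followed through 4 lists of m6A peaks from mouse gastrocnemius, a calf muscle. A peak was taken as a FoxO peak if its deposited gene name was one of these 4 symbols. All 4 genes had peaks, and together they held 29 of the 38927 peaks in the lists, which name 5987 genes in all. The muscles came from 10-week-old male C57BL/6 mice. Denervated muscles (2 libraries) were taken 14 days after the nerve supply was removed, and innervated muscles (2 libraries), labelled untreated, were the opposite-leg controls. In MeRIP-seq, RNA carrying N6-methyladenosine (m6A) is captured with an antibody and sequenced, and a peak is a stretch of transcript enriched over the uncaptured input RNA. Each list was called on 1 captured library against its own input.

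FoxO proteins are forkhead transcription factors that insulin and IGF signalling restrains: the kinase AKT phosphorylates them, 14-3-3 proteins bind them, and they leave the nucleus. When this restraint falls they enter the nucleus and switch on genes of protein breakdown, autophagy and cell cycle arrest. In skeletal muscle they are known for driving atrophy through ubiquitin ligases such as atrogin-1. m6A is a common internal mark of messenger RNA, laid down by a methyltransferase complex and read by proteins that act on RNA decay, splicing and translation.

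The lists held 9327 and 10300 peaks in the innervated libraries and 9804 and 9496 in the denervated ones. They give peak positions and a score, not read counts, so the depth of each library and the level of each FoxO transcript are unknown, and a stretch with no peak is no evidence of missing methylation. In bulk muscle, fewer cells of a type and less RNA per cell cannot be told apart. The labels do not say that replicates were separate animals, so the spread between them may be technical. Fibre identity could not be checked from peaks: 0 of 12 fibre markers, Ckm, Acta1 and Ttn among them, held a peak, and 0 of 4 macrophage markers did. Of 4 endothelial markers, Cdh5 and Kdr were called in all 4 lists, Pecam1 in denervated replicate 1 alone, and Tek in none. Of 3 fibroblast markers, Pdgfra was called in all 4 lists, Col1a1 in denervated replicate 1 alone, and Dcn in none. The adipocyte marker Adipoq was called in all 4 lists and Plin1 in none. The Schwann cell marker Ngfr was called in both denervated lists and in neither innervated list, and Sox10 in innervated replicate 2 alone. The satellite cell marker Pax7 was called in innervated replicate 2 alone, and Myf5 in none. The part of other cell types in the FoxO peaks was not tested.

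All 4 FoxO transcripts carried a peak in all 4 lists. Over all genes with a peak in any list, 48.8% were called in all 4. No FoxO gene was called in only 1 group, where 3.42% of genes were called in both denervated lists only and 3.14% in both innervated lists only. Linked by shared bases, the peaks made 5 regions, of which 4 were called in all 4 lists and 1, in Foxo6, in innervated replicate 2 alone. Of all 13116 regions, 34.6% were called in all 4 lists, 3.67% in both denervated lists only and 4.2% in both innervated lists only. What differed between lists was how far the FoxO peaks reached, where they broke, and whether they crossed an intron. The map of peak blocks shows each stretch by library. Positions are given on mm10, and distances are counted from the first base of the RefSeq gene span on GRCm38.p6, the assembly behind mm10. Exon, coding and UTR annotation was not used here, so an intron is known only where a peak is split into blocks across it.

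**Figure D1:**
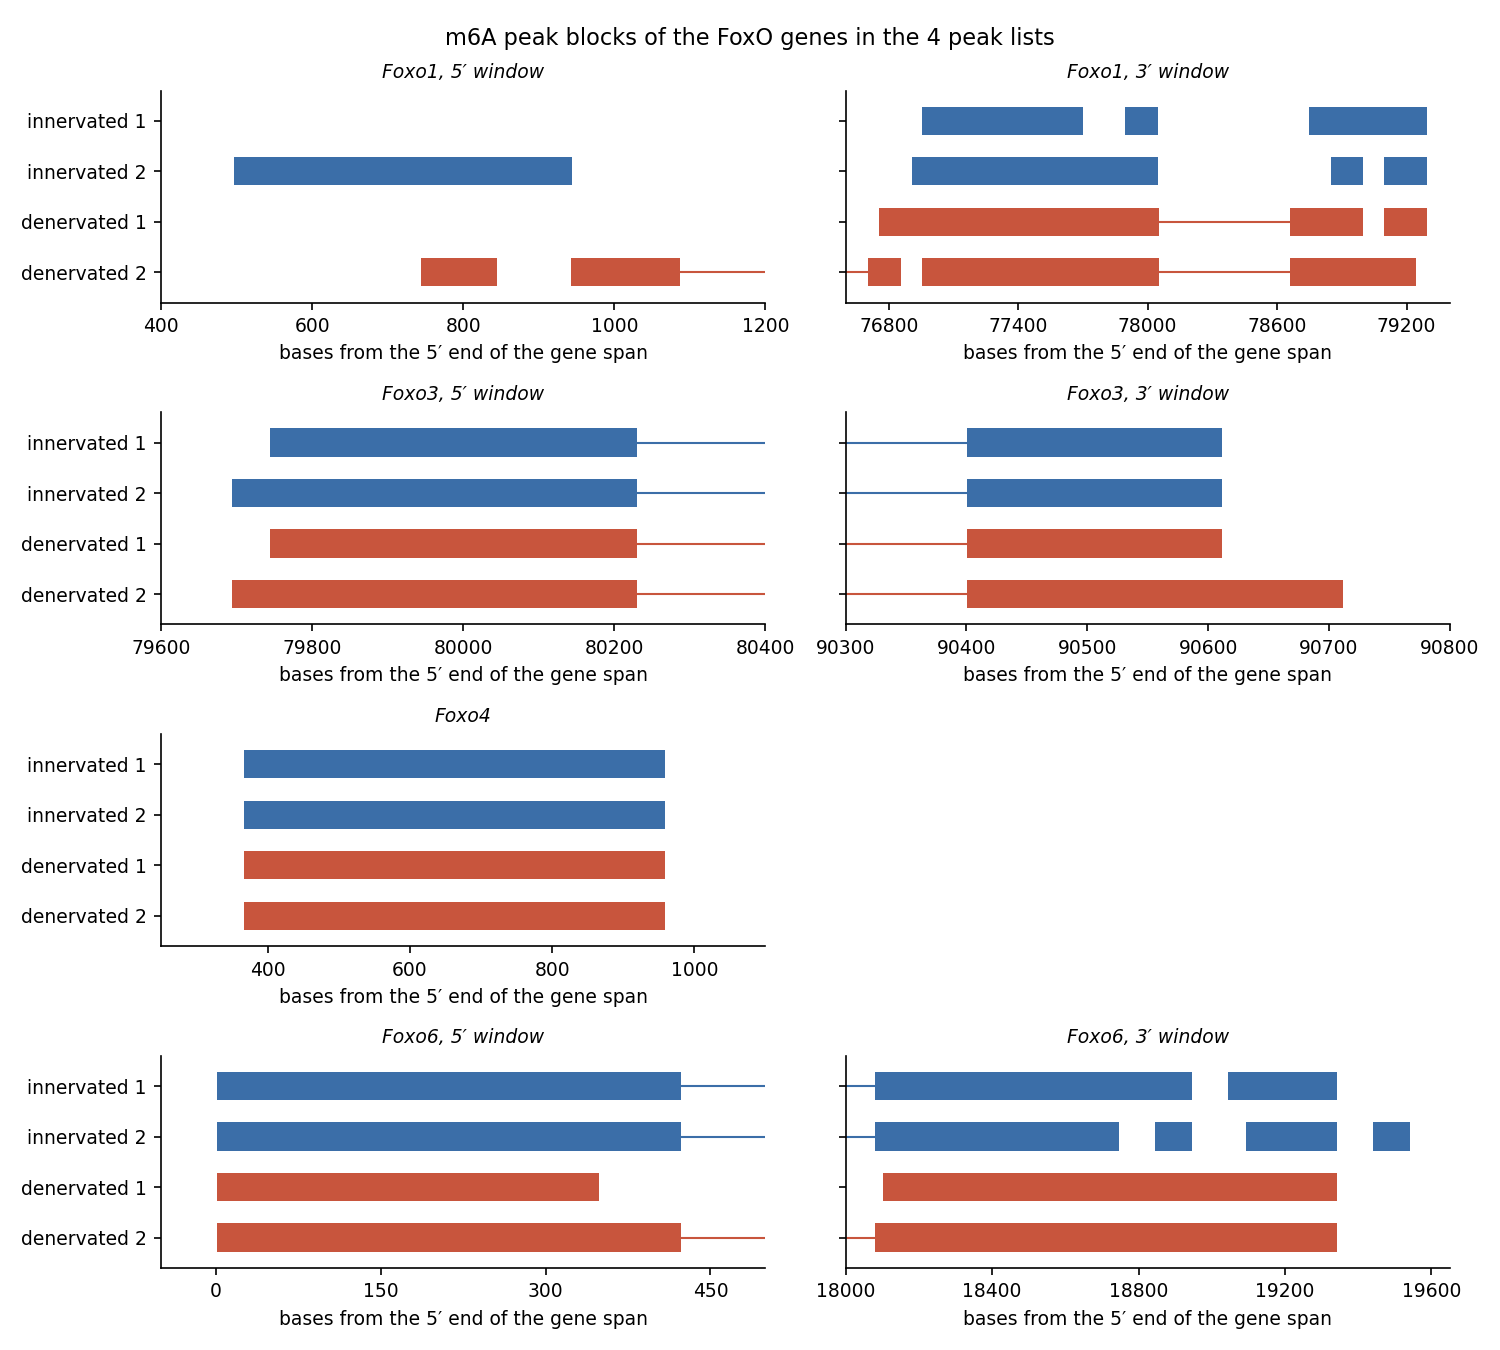
Blocks of the FoxO peaks (bars) in each of the 4 lists, by distance in bases from the 5′ end of the gene span, with innervated lists in blue and denervated lists in red; thin lines join blocks of the same peak across an intron. In the 3′ window of Foxo1 the line across the 605-base intron is present in both denervated lists and in neither innervated list, while the Foxo4 block is the same in all 4.

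Foxo1, a main target of insulin signalling, lies on the plus strand of chromosome 3 from 52268337 to 52350109. Its 3′ peaks fell in a pair of stretches on either side of an intron of 605 bases, from 52346391 to 52346995. Both denervated lists held a peak that ran across this intron, and neither innervated list did. In denervated replicate 1 that peak ran from 52345093 to 52347333, in blocks that together cover 1636 bases. In denervated replicate 2 it ran from 52345291 to 52347581 and covered 1686 bases. The innervated lists had peaks on both sides too, but they stopped short of the intron.

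In innervated replicate 1 the blocks left 8 bases uncovered before the intron and 90 after it. In innervated replicate 2 they left 8 before and 189 after. The call thus turned on 98 and 197 bases of transcript around the junction, with peaks on either side in all 4 lists. Of 3100 introns bridged by a peak in any list, 4.52% were bridged in both denervated lists and neither innervated list. The reverse pattern held for 5% of them. Within genes called in all 4 lists the shares were 4.6% and 4.29% of 2259 introns, so a single intron of this kind is near the background. All Foxo1 peaks had scores in the smaller 50% of their lists.

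Upstream of that intron, the shared stretch of Foxo1 ran from 52345291 to 52346035 in all 4 lists, 745 bases long. Innervated replicate 1 began exactly there, and innervated replicate 2 began at 52345242. Denervated replicate 1 began at 52345093. Denervated replicate 2 had a further block from 52345039 to 52345192, the 3′ end of a peak that crossed a longer upstream intron. After a gap of 98 bases, its next peak began at 52345291, the same base as in innervated replicate 1. The 100 bases from 52345093 to 52345192 were therefore covered in both denervated lists and in neither innervated list. The outer 5′ border lay 200.5 bases farther upstream on average in denervated than in innervated lists, against differences of 49 and 54 bases within the groups (exact permutation p = 0.33, two-sided). In denervated replicate 2 this border is the edge of that longer intron, not the start of the peak over the shared stretch. With 2 libraries against 2, 0.33 is the smallest p this test can give, so none of the permutation tests given here can pass a threshold of 0.05. Among borders of all stretches called in all 4 lists, 7.86% separated the groups with the denervated lists reaching farther out and 7.45% did so with the innervated lists.

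Downstream of the intron, both denervated lists began at its edge, 52346996, and the innervated lists began at 52347086 and 52347185. The 3′ end was 52347631 in 3 lists and 52347581 in denervated replicate 2. A gap from 52347334 to 52347432 broke this stretch in innervated replicate 2 and denervated replicate 1, 1 list of each group. Such gaps changed the number of peaks without changing much of the covered sequence.

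Near the 5′ end of the gene, Foxo1 had peaks in innervated replicate 2 and denervated replicate 2 only. The first list held a peak of 447 bases from 52268833 to 52269279. The second held a peak of 101 bases from 52269080 to 52269180 and a spliced peak that began at 52269279. That peak crossed an intron of 75616 bases, from 52269423 to 52345038, and ended at 52345192. Both lists with a 5′ peak carry the replicate number 2, and 102 bases were covered in both. This stretch did not follow denervation, since each group had it in 1 list of 2.

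Foxo3, known as an inducer of atrogin-1 and of autophagy genes in muscle, lies on the minus strand of chromosome 10 from 42181845 to 42276695. It held a single spliced peak in every list, across the same intron of 10170 bases from 42186296 to 42196465. Of all bridged introns, 12.4% were bridged in all 4 lists, and 17% of those in genes called in all 4. Both intron edges were the same base in all 4 lists. The outer borders moved little: the 5′ border was 42196952 in both lists numbered 1 and 42197002 in both lists numbered 2. The 3′ border was 42186085 in 3 lists and 42185985 in denervated replicate 2. Blocks covered 698 and 748 bases in the innervated lists and 698 and 848 bases in the denervated lists, and the groups overlapped. Innervated replicate 1 and denervated replicate 1 were identical to the base.

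Foxo4, encoded on the X chromosome, had the most constant peak of the family. It lies on the plus strand from 101254261 to 101260873, and each list held a single unspliced peak of 593 bases from 101254627 to 101255219. The peak covered bases 367 to 959 of a gene span of 6613 bases. Start and end were the same in all 4 lists. Among 2610 regions with exactly 1 peak in each list, 1.53% had identical borders and blocks in all 4, and among the 670 of these that reached at least the length of the Foxo4 peak in some list the share was 1.34%. Of the 2924 genes called in all 4 lists, 0.445% had all their covered bases identical in every list, and Foxo4 was among these 13 genes.

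Foxo6, first described in brain, lies on the minus strand of chromosome 4 from 120267078 to 120287261. Its peaks lay near both ends of the gene span and reached its first base at the 5′ end. The 5′ block ended at 120287261 in all 4 lists, which is the first base of the RefSeq span. It was 423 bases long in both innervated lists and in denervated replicate 2, and 348 bases long in denervated replicate 1. In the 3 lists with the longer block the peak ran on across an intron of 17656 bases, from 120269183 to 120286838. In denervated replicate 1 it stopped 75 bases before the intron and resumed 23 bases after it, so the same exonic stretches were called as separate peaks. The intron call was thus missing in 1 list of 1 group and did not separate the groups.

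The 3′ stretch of Foxo6 was continuous in both denervated lists and broken in both innervated lists. Of 5047 stretches called in all 4 lists, 1.86% had this pattern and 1.39% the reverse. These shares cover stretches of all lengths and are not matched to the 1263 bases of the Foxo6 stretch. The Foxo6 stretch ran from 120267920 to 120269159 in denervated replicate 1 and to the intron edge at 120269182 in denervated replicate 2. In innervated replicate 1 it was broken by a gap from 120268219 to 120268316. In innervated replicate 2 the gap was wider, from 120268169 to 120268316, and another lay from 120268417 to 120268514. The 98 bases from 120268219 to 120268316 were thus covered in both denervated lists and in neither innervated list. Innervated replicate 2 alone held a further peak of 100 bases from 120267722 to 120267821, which the other lists lacked.

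The number of FoxO peaks per list followed from such breaks, from whether an intron was bridged, and from the stretches called in 1 or 2 lists. There were 7 and 10 in the innervated lists and 6 and 6 in the denervated lists, so the groups did not overlap. The difference in means was -2.5 peaks (8.5 ± 2.12 against 6 ± 0, SD, n = 2 each, exact permutation p = 0.33, the smallest possible). It was -1 without innervated replicate 2 and -4 without innervated replicate 1. For single genes called in all 4 lists, peak numbers separated the groups with fewer peaks in denervated muscle in 6.46% and with more in 4.86%. The share for sums over 4 genes is not given here, so the FoxO sum has no matching background. Foxo1 had 3 and 4 peaks in innervated and 2 and 3 in denervated lists, and Foxo6 had 2 and 4 against 2 and 1. Neither gene separated the groups alone. Foxo3 and Foxo4 had 1 peak everywhere.

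Fewer peaks did not mean less covered sequence. FoxO blocks covered 4320 and 4817 bases in the innervated lists and 4714 and 5212 in the denervated lists, which overlapped (4569 ± 351 against 4963 ± 352, SD, n = 2 each, exact permutation p = 0.667). Foxo1 covered 1441 and 1936 bases in innervated against 1835 and 2085 in denervated lists, and Foxo6 1588 and 1540 against 1588 and 1686. Foxo1 was among the more widely covered genes, ahead of 89.9% to 95.4% of the genes of each list, and Foxo6 was ahead of 90.0% to 92.7%. No member separated the groups in covered bases, whereas 15.6% of genes called in all 4 lists did with more and 17.2% with fewer bases in denervated muscle. Foxo3 and Foxo4 were nearer the middle, ahead of 60.9% to 66.0% and of 46.7% to 54.4%.

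**Figure D2:**
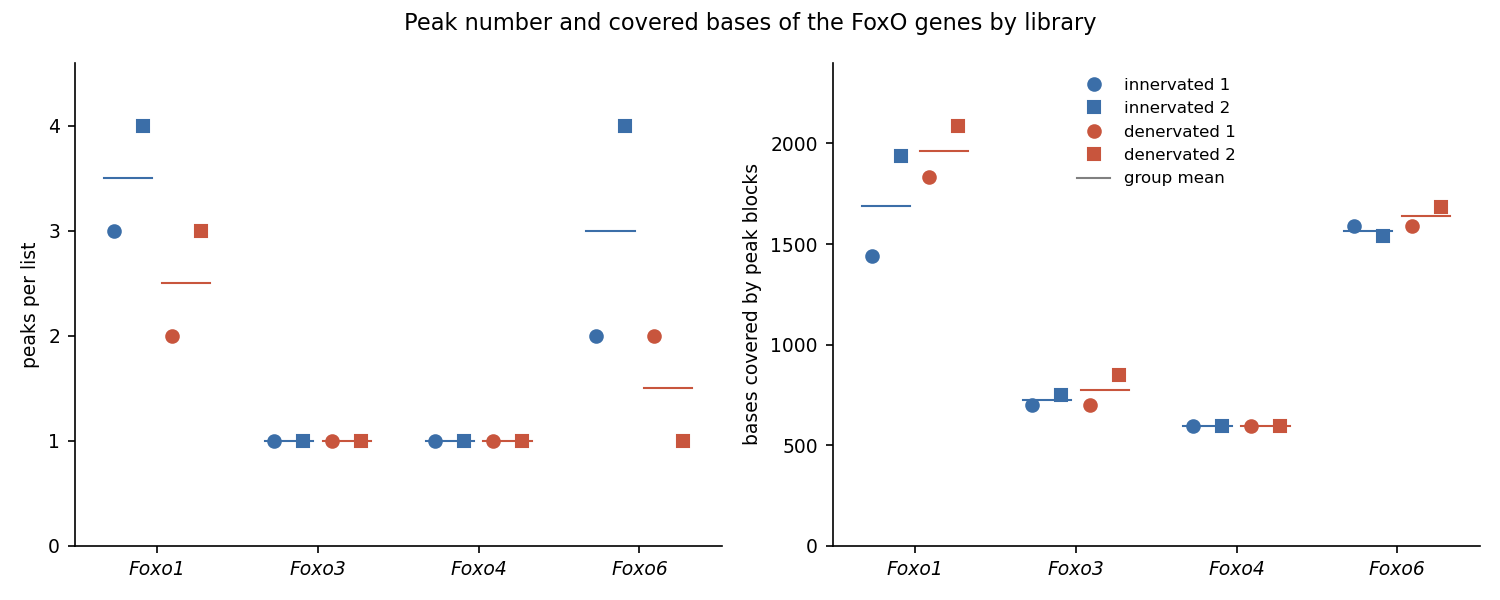
Number of peaks (left) and bases covered by peak blocks (right) of each FoxO gene, 1 point per list, with group means as lines. Foxo1 and Foxo6 had the more variable peak numbers, and Foxo4 covered 593 bases in all 4 lists.

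Spliced peaks, those with 2 or more blocks, numbered 2 and 2 in the innervated lists and 2 and 4 in the denervated lists. In the whole lists 11.5% to 14.8% of peaks were spliced. Foxo1 had 0 and 0 spliced peaks in innervated and 1 and 2 in denervated muscle. The peak across the 605-base intron is among them in both denervated lists, so this count restates that call. Of genes called in all 4 lists, 2.63% separated the groups in spliced peaks with more in denervated muscle and 1.98% with fewer. Foxo3 had 1 in every list, Foxo6 had 1 in every list but denervated replicate 1, and Foxo4 had 0 in all 4.

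By single stretches, Foxo1 was the member whose borders differed most between groups. Of 9 exonic stretches of the FoxO genes, 7 were called in all 4 lists. Over all such stretches, those of genes not called in all 4 lists included, the share was 31.1%. The remaining FoxO stretches, in Foxo1 and Foxo6, were described above. Neither was called in both lists of a group and in none of the other. Of all stretches, 3.82% (both denervated) and 4.26% (both innervated) were. The FoxO stretches called in all 4 lists had 14 outer borders. Of these, 6 were the same base in all 4 lists, against 17.9% over all genes. Among the 6 are both edges of the Foxo3 intron bridged in every list, and the first base of the Foxo6 gene span. Taken over whole linked regions, the planned comparison, FoxO borders differed by 9545 bases on average within a group and by 4791 between groups, because the 5′ peaks of both lists numbered 2 were linked into the Foxo1 region. By single stretches the direction was the opposite: the borders of a FoxO stretch differed by 19.6 bases on average between libraries of a group and by 35.5 between groups. For Foxo1 these means were 31.5 and 93.2 bases, for Foxo3 25 and 18.8, and for Foxo6 12.2 and 12.2. Foxo4 borders did not move. The Foxo1 borders at 52345039, 52346390 and 52346996 in denervated lists are edges of bridged introns, so its border difference partly restates the intron calls. Borders in these lists step in units near 50 bases: of 14014 nonzero border differences between single unspliced peaks, 97.0% lay within 2 bases of a multiple of 50. Of the 14 distinct sizes of border difference in the FoxO stretches, 7 fell on such steps.

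Of the bases of Foxo1 covered in any list, 46.3% were covered in all 4, against 82.3% for Foxo3, 100% for Foxo4 and 75.1% for Foxo6. Over all genes the share was 33.1%, but this includes genes not called in all 4 lists, unlike the 4 FoxO genes. The share over genes called in all 4 lists is not given here. Bases covered in both denervated lists and neither innervated list made up 198 of 2578 bases in Foxo1 and 98 of 1786 in Foxo6, and 0 in Foxo3 and Foxo4. That was 5.10% of FoxO bases, against 4.11% of all covered bases. The reverse pattern was found for 0 FoxO bases, against 4.22% of all covered bases. These bases lie in 4 stretches of 2 genes, and neighbouring bases share their calls. The Foxo1 stretches of 8 and 90 bases border the 605-base intron and restate its bridging.

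**Figure D3:**
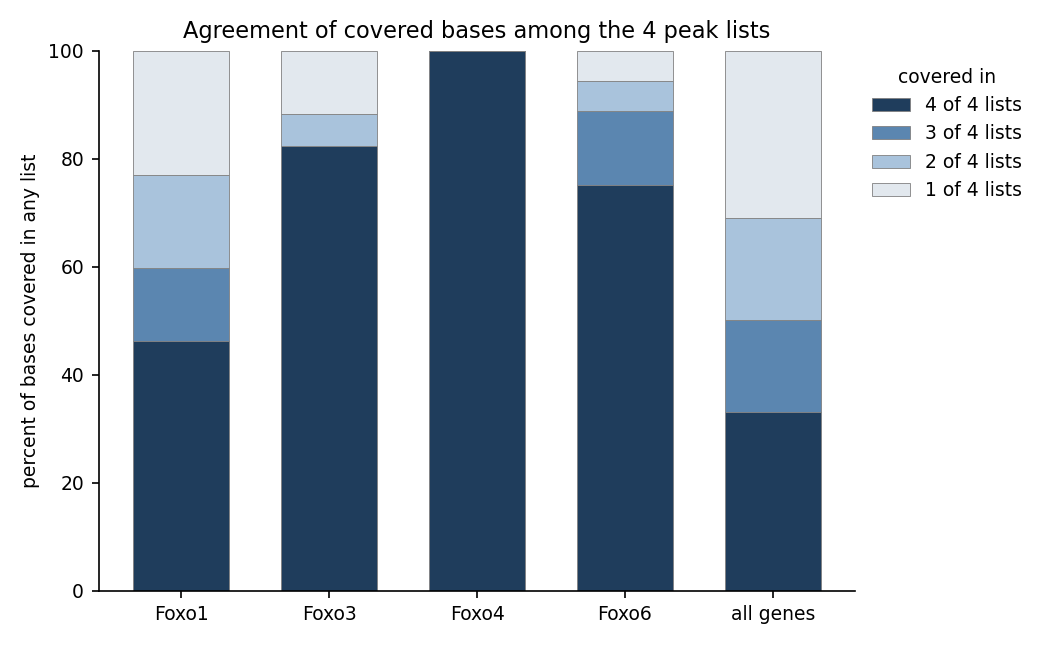
Percent of the bases covered in any list that were covered in 4, 3, 2 or 1 of the 4 lists, for each FoxO gene and for all genes. The share covered in all 4 lists ran from 46.3% in Foxo1 to 100% in Foxo4. It was 33.1% over all genes, which include genes not called in all 4 lists.

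The overlap of covered bases between 2 lists was also given as the Jaccard index, the shared bases divided by the bases covered in either list. For Foxo1 it was 0.582 for the innervated pair and 0.755 for the denervated pair, and it ran from 0.590 to 0.694 between lists of different groups. For Foxo3 it was 0.933 and 0.823 within groups and 0.823 to 1 between them. For Foxo6 it was 0.853 and 0.942 within groups and 0.751 to 0.942 between them. In none of these 3 genes did both pairs of the same group exceed every pair of different groups. Averaged over the 6 pairs, the index was 0.654 for Foxo1, close to the median of 0.681 over the genes called in all 4 lists. It was 0.899 for Foxo3 and 0.863 for Foxo6, higher than in 94.8% and 90.2% of those genes.

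**Figure D4:**
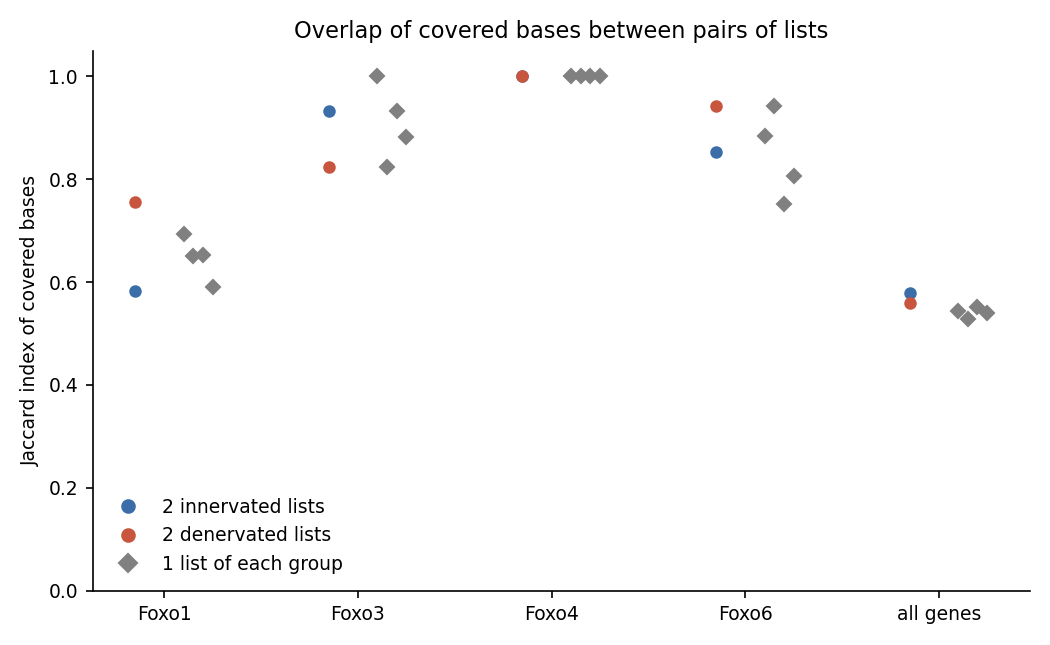
Jaccard index of covered bases for each of the 6 pairs of lists, by FoxO gene and for all genes; the points of Foxo4 coincide at 1. Foxo1 pairs lie between 0.582 and 0.755, and pairs of the same group (circles) lie among pairs of different groups (diamonds) in Foxo3 and Foxo6.

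The score of a peak is the authors' own value, and small scores were read as strong peaks. What the score measures is not given in the sources used here, so this reading is uncertain. All peaks of a FoxO gene had the same score within a list, as did all peaks in 55.8% to 70.1% of the genes with several peaks in a list, so for these members the score ranks the gene and not the single peak. Ranks are given as percentiles of the list, 100 at the smallest score. Foxo6 ranked above the other members in all 4 lists, at 99.2 and 79.8 in innervated and 99.6 and 89.7 in denervated muscle. Its scores were 2e-12, 1.4e-06, 5e-15 and 3.3e-08, and it stood 38th, 899th, 18th and 376th among the genes of those lists. The lists numbered 1 were higher than those numbered 2 in both groups.

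Foxo1 was the member whose rank separated the groups. It stood at 55.4 and 52.8 in innervated and at 68.2 and 63.1 in denervated muscle, with scores of 8.9e-05, 9.8e-05, 2.8e-05 and 2.6e-05. The mean was 11.6 percentile points higher in denervated muscle (54.1 ± 1.80 against 65.7 ± 3.66, SD, n = 2 each, exact permutation p = 0.33, the smallest possible). Of the genes called in all 4 lists, 16.7% separated the groups in this direction and 17.3% in the other, so this is near the background. Foxo4 stood at 58.4 and 66.6 in innervated and 77.8 and 63.1 in denervated muscle, and the groups overlapped.

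Foxo3 varied most. It stood at 62.2 and 34.0 in innervated and at 57.3 and 13.1 in denervated muscle. Its scores of 4.5e-05, 0.00038, 7.8e-05 and 0.0021 span the replicates of each group more than the groups. Foxo3 was the lowest of the family in 3 lists, and in innervated replicate 1 Foxo1 and Foxo4 were lower. Its mean was lower in denervated muscle by 12.9 points, less than the spread within groups (48.1 ± 19.9 against 35.2 ± 31.3, SD, n = 2 each, exact permutation p = 0.667). That direction turned without innervated replicate 1 (1.20 points higher in denervated muscle) and without denervated replicate 2 (9.23 points higher).

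**Figure D5:**
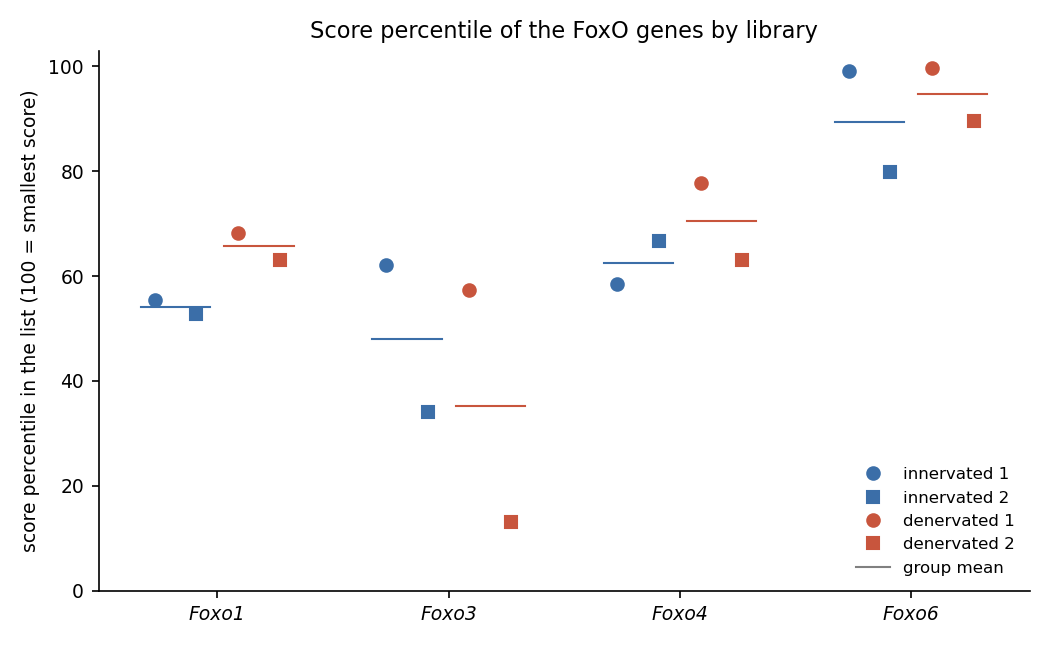
Percentile of each FoxO gene in its list by score, 1 point per list, with group means as lines; 100 marks the smallest score. Foxo6 is highest in all 4 lists, Foxo1 separates the groups, and Foxo3 runs from 13.1 to 62.2.

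The genes whose percentiles over the 4 lists were most like those of each member were found among genes called in all 4 lists with the same number of linked regions. For Foxo1 they were Angptl2, Sde2 and Wdr20, at distances of 6.46 to 8.45 percentile points among 977 candidates. For Foxo3 they were Gpc1, Far2 and Pcyt2, at 5.44 to 9.83 points. For Foxo4 they were Lrch3, Pdgfra and Tmem252, at 6.46 to 7.53 points. For Foxo6 they were Nim1k, Fkbpl and Lysmd3, at 4.22 to 8.51 points among 854 candidates. The distance is over 4 lists only.

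Genes around FoxO were described with 3 lists covering upstream signalling, proteins that bind or modify FoxO, and known targets. Of 75 genes 41 had a peak, and 25 of these were called in all 4 lists, which is 61.0% beside 48.8% of all genes with a peak. The share of all annotated genes that have a peak is not given here. Counts of genes with or without a peak therefore cannot be read as particular to these lists. The list genes with a peak held a median of 1 region, against 2 over all genes. By list the median was 2.5 for upstream signalling, 2 for binding and modifying proteins and 1 for targets. One gene was called in both denervated lists and neither innervated list, and 1 showed the reverse, beside the 3.42% and 3.14% of all genes given above.

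Upstream, the insulin and IGF receptors Insr and Igf1r, their adaptors Irs1 and Irs2, the regulatory subunit Pik3r1, the AKT phosphatase Phlpp2 and the mTORC2 subunit Rictor were called in all 4 lists. That was 58.3% of the 12 upstream genes with a peak, beside 48.8% of all genes with a peak. Irs1 had 6 and 3 peaks in innervated and 8 and 7 in denervated lists. Irs2 had 3 and 6 against 7 and 8. The peak numbers of both adaptors separated the groups, with more peaks in denervated lists, a pattern found in 4.86% of genes called in all 4 lists. These 2 genes were picked for their values. Akt1 and Sgk1 had no peak, and Akt2 had 1 peak in innervated replicate 2.

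Of 20 proteins that bind or modify FoxO, 9 had a peak and 7 of these (77.8%) were called in all 4 lists, beside 48.8% of all genes with a peak. The 7 were the 14-3-3 gene Ywhag, the deacetylase Sirt1, the acetyltransferases Ep300 and Crebbp, the ubiquitin ligase Mdm2, and the coactivators Ctnnb1 and Ppargc1a. Ctnnb1 encodes beta-catenin, and Ppargc1a encodes PGC-1alpha. Of 6 14-3-3 genes, 5 had no peak, with no share of all annotated genes to set beside this.

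Of 35 target genes, 20 had a peak and 11 of these (55%) were called in all 4 lists, near the 48.8% of all genes with a peak. The 11 include the ubiquitin ligases Fbxo32 (atrogin-1) and Fbxo30, the autophagy kinases Ulk1 and Ulk2, and Tfeb, a transcription factor of lysosomal genes. Sesn1, a stress-response regulator, Pdk4, which restrains pyruvate oxidation, the transcription factors Klf15 and Klf2, the coregulator Cited2 and the translation repressor Eif4ebp1 complete them. Fbxo31 was called in both denervated lists alone, on chromosome 8 from 121549888 to 121550086, at percentiles of 1.79 and 4.07. Gadd45a was called in both innervated lists alone, at 60.1 and 41.0. Trim63 (MuRF1) and the cell cycle inhibitors Cdkn1a and Cdkn1b had no peak.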

How the data were processed

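Per the submitters' processing notes, STAR 2.4.2a, ChIPseeker and mm10 were used; the tool that called peaks is not given in the sources used here. Deposited by the authors were 4 peak lists, 1 per captured library against its input, with blocks and a value named score per the file headers (0 to at most 0.023). Python 3.11.15 was used for all steps. Peaks sharing at least 1 block base on 1 strand were linked into regions, and single blocks likewise into exonic stretches. Differences between group means were tested by exact permutation of 2 against 2 libraries, two-sided. Functions were tested on simulated lists. Of 8 libraries, the inputs enter only through the lists. Read counts, and so depth, were not analysed here. The planned motif count needs a genome and was not run.

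Members and gene lists were chosen with earlier results of these data known. Genes were named by rule: the members; the 3 most alike genes of each; list genes called in all 4 lists or in 1 group only. Others, including list genes with no peak, were picked for their values. Some list genes are not reported here by name. Alternatives were the smaller-score or larger-score 50% of each list, equal list lengths, gene span, other linking, a replicate block and leaving out each library. Intron and spliced-peak counts in these settings were added after the data were seen.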

Additional observations from a re-analysis of the deposited data

How the results depend on the processing

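Of 227 values under alternatives, 192 kept their sign or, for counts of calls, stayed within 1.5 times, 17 reversed and 18 fell to 0 or moved further than that. Some of the 192 could not differ, since the replicate block changes the p-value and not the difference in means. Keeping to the gene span changed no value, and differences of 0 that stayed 0 were counted as kept. The tally is therefore no measure of robustness. FoxO differences are denervated minus innervated. Peak number (-2.5) ran from -4 to -1 with a library left out, and covered bases (394.5) from 145.5 to 643.5; spliced peaks (1) ran from 0 (without denervated replicate 2) to 2. With the larger-score 50% of a list, peak number and spliced peaks both differed by 0, where only the Foxo3 peaks of the lists numbered 2 are left. The mean percentile over the members (2.93) ran from -6.33 to 12.2, below 0 without innervated replicate 2 or denervated replicate 1. Single genes reversed in percentile without innervated replicate 1 (Foxo3, 1.20), innervated replicate 2 (Foxo6, -4.49) and denervated replicate 2 (Foxo3, 9.23), and in covered bases without denervated replicate 2 (Foxo3, -25). The Foxo3 ranges were -25 to 125 bases and -35.0 to 9.23 points. With large scores read as strong every sign turned by construction: -2.93 for the mean, -11.6 for Foxo1, 12.9 for Foxo3, -7.89 for Foxo4 and -5.17 for Foxo6.

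Within-group minus between-group Jaccard overlap of the members (0.0219) was -0.0323 with the smallest scores, and ran from -0.0311 to 0.0997 with a library left out (below 0 without either denervated replicate). Border differences between minus within groups, taken over whole linked regions, were -4754 bases (-4732 without innervated replicate 1), because the 5′ peaks of the lists numbered 2 joined the Foxo1 region. This became 12.6 without denervated replicate 1, 12.4 without denervated replicate 2 and 15.9 with single blocks. With only the smallest-score 50% of a list, 11 instead of 25 pathway genes and 4 instead of 7 other forkhead genes were called in all lists. With the largest scores these were 4 and 1, and 0 FoxO regions (of 4) and 0 introns of the denervated-only kind (of 1) were left. Without denervated replicate 1 there were 2 such introns. Halving the lists can only lower counts of genes called in all lists. The share of all genes in those settings is not given here, so the lower counts cannot be read as particular to these genes. The smallest scores gave no mean percentile, since Foxo3 dropped out of some lists. Linking by reciprocal overlap of 50% gave 15 FoxO regions in place of 5, of which 4 were called in all 4 lists. Joining peaks within 100 bases gave 4 regions, and 4 were called in all 4 lists.

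The replicate numbers are not said to pair the samples, and same-numbered libraries did not deviate together (correlation -0.0287 for percentiles and 0.0199 for covered bases over 2924 genes). With the replicate block the peak number differed by -2.5 and covered bases by 394.5, each at an exact sign-flip p of 0.5, the smallest that 2 pairs allow.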

Other observations

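Other forkhead genes were also called widely. Of 10 outside the FoxO group with a peak in any list, 7 were called in all 4 lists, beside 48.8% of all genes with a peak: Foxc1, Foxk1, Foxk2, Foxn2, Foxn3, Foxp1 and Foxs1. Foxk1 and Foxk2 encode forkhead factors that also respond to insulin signalling, and they held 4 regions and 1 region. Foxc1, a factor of vascular and mesenchymal development, had 5 and 6 peaks in innervated and 3 and 5 in denervated lists, which overlapped. Foxn3 had 2 peaks in every list, at percentiles of 9.39 to 21.1.

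Foxd3, known as a factor of the neural crest, was the forkhead gene called in the innervated lists alone, where 3.14% of all genes were. It had 3 and 4 peaks in the innervated lists, at percentiles of 83.8 and 89.4, and 0 in both denervated lists. The peaks lie on the plus strand of chromosome 4. Of 5 regions, those from 99657139 to 99657386 and from 99658127 to 99658276 were shared by both innervated lists, and the other 3 were held by 1 list each. Foxj2 had a peak in denervated replicate 1 alone, and Foxp4 in innervated replicate 2 and denervated replicate 1.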
